A study of Rattus norvegicus with 20 samples.

Results

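The collagen genes of the rat were followed in whole blood RNA-seq libraries of rats on polyphenol diets. They were taken as every row of the deposited count table whose symbol has the form of a collagen chain, Col followed by the collagen type number, the letter a and the chain number. The rule found 42 genes among the 32882 genes of the table, with no symbol repeated, and used no measured value. All rats were male wild type Fischer 344 rats aged 8 weeks that ate for 20 days. The groups were CSAA+PTS (a choline-sufficient amino acid-defined diet, CSAA, with pterostilbene at 1.34 g per kg of diet), CSAA+RSV (resveratrol at 1.2 g per kg), CSAA+CGA (chlorogenic acid at 1.9 g per kg) and the CSAA control diet alone. The compounds were given at equal molar amounts, and pterostilbene is the dimethoxy analog of resveratrol. Each diet had 5 rats with 1 library each, and the blood was drawn with a capillary tube from the venous plexus behind the eye.

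Collagens are the chief structural proteins of connective tissue. Each molecule is a triple helix of 3 alpha chains, with a gene for each chain, and the chains are hydroxylated, trimmed by proteases and crosslinked on the way from the endoplasmic reticulum to the matrix. Fibrillar types I and III form the fibers of skin, tendon and vessel walls and are made mainly by fibroblasts, type IV forms the network of basement membranes, and FACIT collagens (fibril-associated collagens with interrupted triple helices) sit on the surface of fibers. Circulating blood cells are not known as a major source of collagen, but platelets and leukocytes carry receptors for it, and neutrophils carry a collagenase.

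The 20 libraries held 861072 to 36743103 counts. CSAA+RSV Rat4 had the 861072 counts and was left out of every comparison, and the other 19 libraries held at least 24036703. Blood identity was plain in the 19 libraries: all 11 blood cell markers were detected in each, with summed levels of 19988 to 52160 CPM (reads per 1000000 counts of the TMM-adjusted library size). Of the 8 endothelial markers in the table, Cldn5 alone had 0 reads in every library. The others had reads, Vwf with 21.2 to 59.0 CPM and Kdr with 1.53 to 3.21 CPM. The rest were lower than Vwf, with medians of 1.98 CPM for Tie1, 1.13 CPM for Esam and 0.815 CPM for Tek. Cdh5 (median 0.126 CPM) had 0 reads in 1 library and Emcn (median 0.0577 CPM) in 2. Which cells gave the reads of these markers was not tested. The Rat5 libraries stood apart in breadth. With 25104 to 29543 genes detected in the Rat5 libraries of the 4 diets, they lay above the other 15 libraries, which had 19600 to 23632. By animal number, Rat1 to Rat4 of the 4 diets were animals 1 to 16. Rat5 was animal 17 in CSAA but 22 in CSAA+RSV, 23 in CSAA+PTS and 24 in CSAA+CGA. Beyond these numbers the labels do not say what the Rat5 libraries share. The diet comparisons of the collagens are given with and without them.

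Collagen transcripts were rare. Across the 19 libraries the 42 genes took 27204 reads, and a library held 361 to 8092. As a share of all counts this was 0.0228% (95% Wilson interval 0.0223% to 0.0233%) in the highest library, CSAA+CGA Rat5, and 0.0011% (0.00099% to 0.00122%) in the lowest, CSAA Rat3. These intervals cover counting error only. Each collagen had at least 1 read in some library, 24 had a read in every library, and a single library held reads of 33 to 42 of them. At these depths 3 reads, the upper limit that a count of 0 allows, corresponded to 0.0736 to 0.122 CPM. In bulk blood, fewer cells of a type and less RNA per cell cannot be told apart.

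A few genes carried most of the reads. Col3a1, the chain of type III collagen, took 33.9% of collagen reads, and Col1a1, one of the chains of type I collagen, took 15.4%. Another 7 genes had over 800 reads each over the 19 libraries: Col11a1, Col10a1, Col11a2, Col20a1, Col4a4, Col17a1 and Col4a3. Together these 9 genes held 77.8% of collagen reads. The other 33 had 31 to 484 reads each, Col25a1 the fewest and Col5a1 the most. Relative to gene length, the median level over the 19 libraries was highest for Col10a1, a collagen of growth cartilage (1.26 CPM per kb), and next for Col3a1 (1.14 CPM per kb), and these were followed by Col20a1 (0.367 CPM per kb) and Col1a1 (0.342 CPM per kb). By the mean, Col3a1 came first, at 2.79 CPM per kb against 1.11 CPM per kb for Col10a1, so the order of these genes rested on a few libraries.

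**Figure D1:**
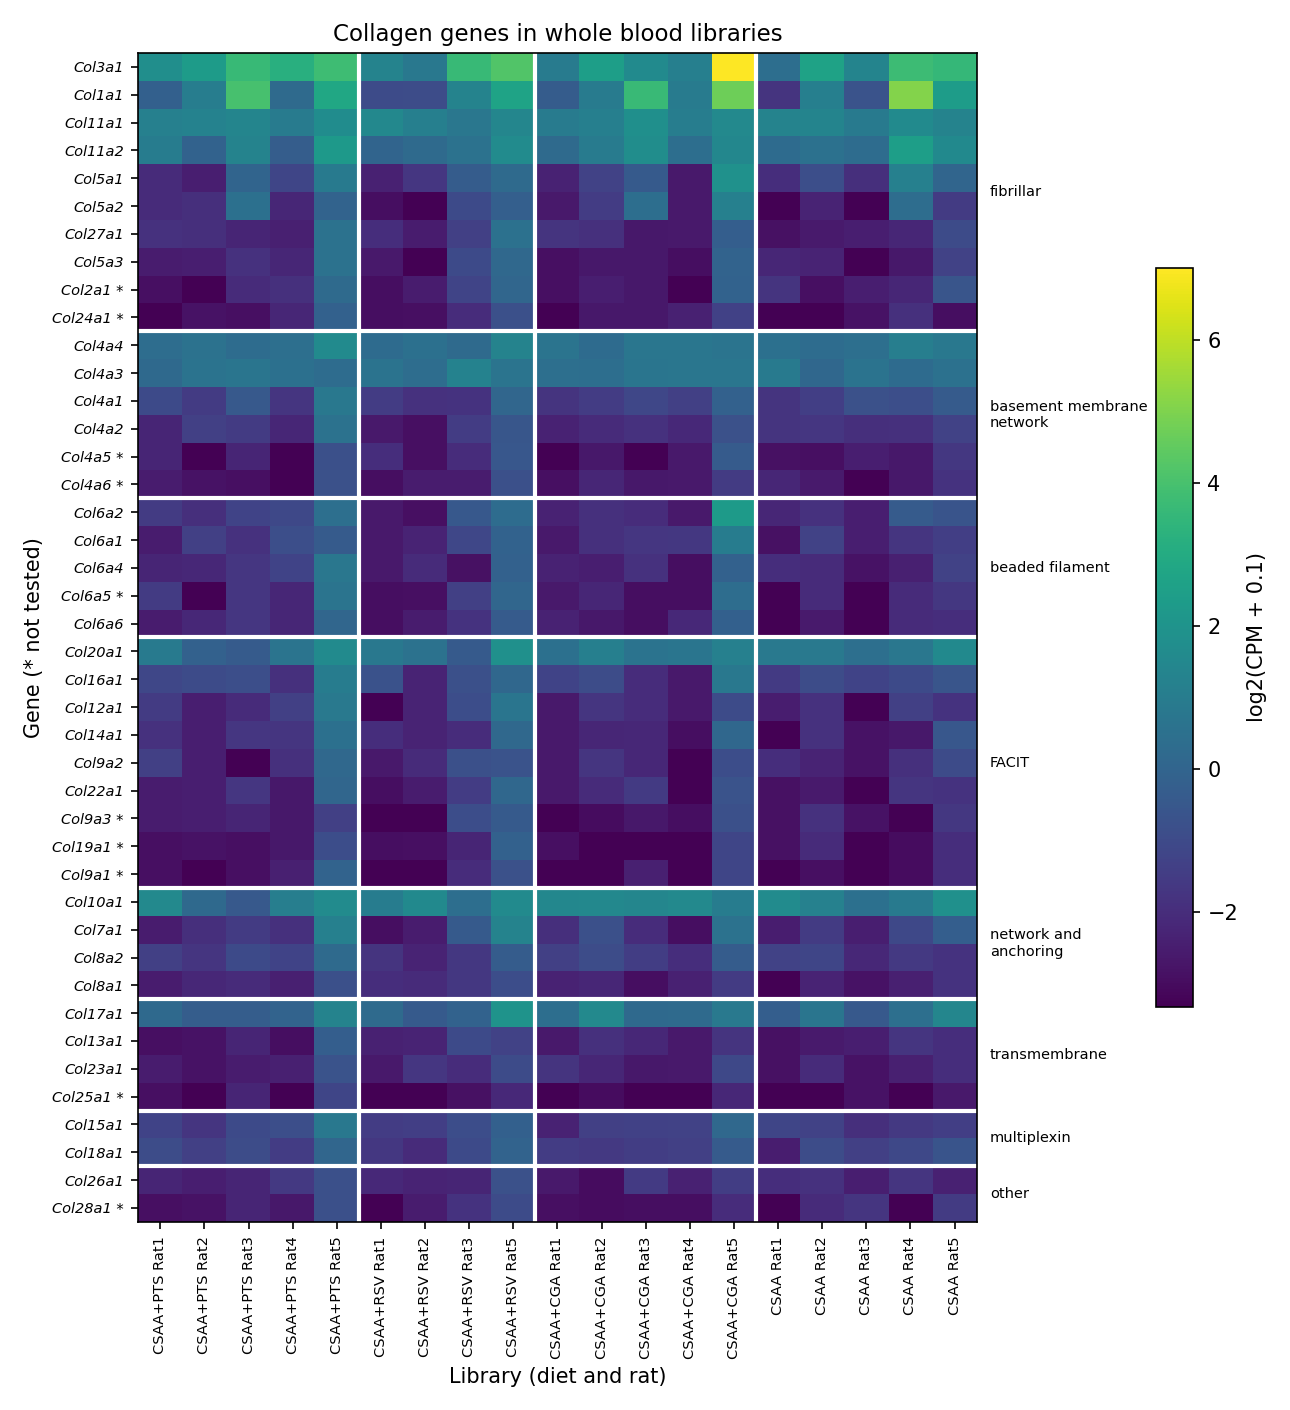
Level of each of the 42 collagen genes (rows, grouped by class) in each of the 19 libraries (columns, grouped by diet), as log2(CPM + 0.1). The Rat5 columns of CSAA+PTS, CSAA+RSV and CSAA+CGA are lighter over most rows, Col11a1 and Col4a3 are near even across columns, and an asterisk marks the 10 genes that were not tested for low counts.

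Col3a1 ranged widely within every diet. It had 3.36, 4.96, 12.4, 8.92 and 13.6 CPM in the CSAA+PTS rats (Rat1 to Rat5), 2.33, 1.65, 12.2 and 18.3 CPM in the CSAA+RSV rats (Rat1, Rat2, Rat3 and Rat5) and 1.87, 5.45, 2.99, 2.11 and 128 CPM in the CSAA+CGA rats, against 1.21, 6.09, 2.42, 13.3 and 11.6 CPM in the CSAA rats. All diets overlapped, and 1 library, CSAA+CGA Rat5, held 56.4% of all Col3a1 reads (5199 reads). The median Col3a1 level over the 19 libraries was 5.45 CPM.

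Col1a1 had a different set of high libraries. Its levels were 0.787, 1.99, 15.98, 1.10 and 6.96 CPM in the CSAA+PTS rats, 0.410, 0.421, 2.37 and 6.29 CPM in the CSAA+RSV rats and 0.71, 1.84, 12.7, 1.89 and 26.04 CPM in the CSAA+CGA rats, against 0.196, 2.1, 0.524, 34.1 and 5.11 CPM in the CSAA rats. The highest library was a control, CSAA Rat4, with 1200 reads. Col1a1 exceeded Col3a1 in 3 libraries, with ratios of Col1a1 to Col3a1 reads of 1.29 in CSAA+PTS Rat3, 4.24 in CSAA+CGA Rat3 and 2.56 in CSAA Rat4. In the other 16 the ratio was under 1, with the lowest value of 0.123 in CSAA+PTS Rat4. The proportion of the 2 genes thus differed by 34.5 times between libraries of the same tissue, and the high Col1a1 and high Col3a1 libraries were partly different rats.

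**Figure D2:**
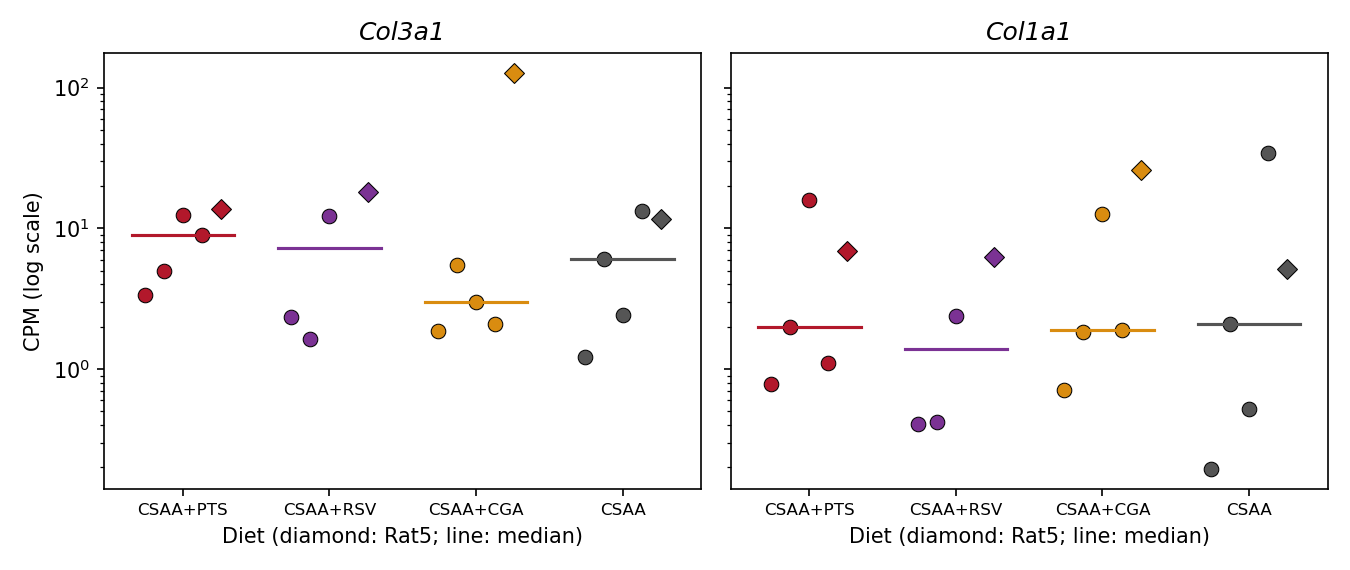
Level of Col3a1 and Col1a1 in CPM (log scale) in each rat, by diet, with diamonds for the Rat5 libraries and lines for diet medians. Col3a1 reaches 128 CPM in CSAA+CGA Rat5, Col1a1 reaches 34.1 CPM in CSAA Rat4, and the diets overlap for both genes.

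The same libraries were high for other matrix genes. Dcn, which encodes decorin, a proteoglycan that binds collagen fibers, had 23.3 CPM in CSAA+CGA Rat5 and at most 4.45 CPM in the other 18 libraries. Sparc, a collagen-binding matrix protein, had 19.6 CPM in CSAA+CGA Rat5, 7.58 CPM in CSAA Rat4, 6.81 CPM in CSAA+PTS Rat3 and 4.75 CPM in CSAA+CGA Rat3, and 0.484 to 3.61 CPM elsewhere. Thus the 3 libraries with more Col1a1 than Col3a1 were also the next highest in Sparc. These 2 genes were singled out after their values were seen. Of the 10 fibroblast markers, 7 had their highest level in CSAA+CGA Rat5, where the list summed to 46.4 CPM, against 4.62 to 15.1 CPM in the other 18 libraries. Whether fibroblast RNA accounted for the collagen reads was not tested.

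Among the 9 collagens with over 800 reads, 3 varied least between libraries. Across the 19 libraries Col4a3, a chain of the basement membrane of the kidney glomerulus, stayed between 0.980 and 2.26 CPM, with a median of 1.41 CPM. Col11a1, a minor fibrillar chain that sets the width of cartilage fibers, ran from 1.61 to 3.47 CPM, with a median of 2.32 CPM. Col4a4, the partner of Col4a3, lay between 1.09 and 2.97 CPM. It was less even than the other 2, with its highest levels in CSAA+PTS Rat5 (2.97 CPM) and CSAA+RSV Rat5 (2.34 CPM). These 3 genes were the collagens whose highest library was within 3-fold of their lowest, a property that 62.1% of all tested genes shared. Their means showed the same evenness by diet: Col11a1 averaged 2.40 ± 0.49 CPM in CSAA+PTS (SD, n = 5), 2.25 ± 0.50 CPM in CSAA+RSV (n = 4) and 2.44 ± 0.69 CPM in CSAA+CGA (n = 5), against 2.35 ± 0.43 CPM in CSAA (n = 5).

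Other abundant collagens were less even. Col10a1 ran from 0.642 CPM in CSAA+PTS Rat3 to 3.54 CPM in CSAA Rat5. In the current rat annotation Col10a1 overlaps Nt5dc1, a gene on the other strand with 8.45 to 12.3 CPM, and since the strand setting of the counting was not given in the sources used here, its count is uncertain. In all, 7 of the 42 collagens overlapped another protein-coding gene: Col10a1, Col1a1, Col20a1, Col4a6, Col6a4, Col6a5 and Col6a6. The counts of the others are thus uncertain too. Col11a2, a partner chain of Col11a1, had 5.48 CPM in CSAA Rat4 and 0.721 to 4.60 CPM in the other libraries. Col20a1, a FACIT collagen, ran from 0.657 to 3.51 CPM. Col17a1, a transmembrane collagen that anchors keratinocytes in skin, ran from 0.645 to 3.88 CPM and was highest in CSAA+RSV Rat5. The same library had the most Krt5, a keratin of basal epithelium (34.2 CPM against 0.0299 to 13.3 CPM in the other 18 libraries), and CSAA+CGA Rat2, with the next highest Krt5 level of 13.3 CPM, had the next highest Col17a1 level of 2.80 CPM. Other libraries did not pair in this way: CSAA+PTS Rat5 had 2.36 CPM of Col17a1 with 0.816 CPM of Krt5, and CSAA+RSV Rat1 had 1.07 CPM of Col17a1 with 6.68 CPM of Krt5. Krt5 was singled out after its values were seen. Whether epithelial RNA accounted for these Col17a1 reads was not tested.

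The 6 type IV chains lie in head-to-head pairs, and their counts are given by pair. In the pair Col4a1 and Col4a2, the chains found in nearly all basement membranes, the starts of the genes are 76 bases apart on opposite strands. In the pair Col4a3 and Col4a4 they are 412 bases apart, and in Col4a5 and Col4a6 1414 bases. The stretches before the starts are shown for the first pair, whose 2 genes were both highest in Rat5 in every diet, and for the second, whose 2 genes differed in the Rat5 libraries. Capitals mark the GC box, GGGCGG read on either strand, in the RefSeq sequence of build GRCr8. Neither printed stretch holds a CCAAT box.
Between the Col4a2 and Col4a1 starts, chr16:84885521-84885596, plus strand: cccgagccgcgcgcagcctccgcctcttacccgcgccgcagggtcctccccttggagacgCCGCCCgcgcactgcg
Before the Col4a3 start, chr9:91323740-91323989, plus strand: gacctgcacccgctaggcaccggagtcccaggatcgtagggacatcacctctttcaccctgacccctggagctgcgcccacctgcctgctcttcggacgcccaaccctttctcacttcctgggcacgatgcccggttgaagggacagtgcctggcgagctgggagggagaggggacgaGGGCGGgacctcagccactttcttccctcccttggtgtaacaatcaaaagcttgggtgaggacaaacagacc
Each stretch held 1 GC box. Over the 250 bases before the start, a GC box was present in 19 of the 33 collagens with a promoter sequence and in 32.4% of the 27457 RefSeq promoter sequences. A CCAAT box was present in 10 of the 33, Col4a1 and Col4a2 among them, since this window reaches past the shorter stretch, and in 34.3% of all, and a TATAAA box in 3 of the 33 (Col10a1, Col17a1 and Col13a1) and in 13.1% of all. Such matches describe the letters alone.

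The pairs did not each move as one, and Col4a1, Col4a2, Col4a5 and Col4a6 were singled out after their values were seen. Col4a1 had 11, 6, 18, 7 and 57 reads in the CSAA+PTS rats, 8, 5, 5 and 37 reads in the CSAA+RSV rats and 6, 9, 12, 9 and 34 reads in the CSAA+CGA rats, against 5, 8, 12, 16 and 22 reads in the CSAA rats. Col4a2 had 3, 7, 7, 4 and 47 reads in the CSAA+PTS rats, 2, 1, 7 and 22 reads in the CSAA+RSV rats and 3, 5, 6, 4 and 20 reads in the CSAA+CGA rats, against 5, 6, 4, 6 and 10 reads in the CSAA rats. For both genes the last rat of each diet, Rat5, was the highest of its diet. The highest Col4a3 library had 64 reads and the lowest 28, and Rat5 was not the highest for Col4a3 in any diet on the CPM scale. Its partner Col4a4 had 33, 34, 32, 44 and 102 reads in the CSAA+PTS rats, 36, 37, 30 and 90 reads in the CSAA+RSV rats and 46, 39, 52, 49 and 60 reads in the CSAA+CGA rats, against 33, 33, 31, 72 and 52 reads in the CSAA rats. Rat5 thus stood out for Col4a4 in CSAA+PTS and CSAA+RSV, and CSAA Rat4 was the highest control. Col4a5 and Col4a6 had at most 5 reads in the other 15 libraries, while the Rat5 libraries of CSAA+PTS, CSAA+RSV, CSAA+CGA and CSAA had 16, 23, 28 and 7 reads of Col4a5 and 17, 18, 10 and 6 reads of Col4a6.

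In CSAA+PTS, CSAA+RSV and CSAA+CGA the Rat5 library was the highest of its diet for most collagens, and less often so in CSAA. Rat5 was the highest library of its diet for 39 of the 42 collagens in CSAA+PTS, 39 in CSAA+RSV and 36 in CSAA+CGA, against 25 in CSAA. The share of all genes with Rat5 highest was not counted diet by diet, so these counts have no background of their own. It was counted for all 4 diets together and is given below. The median over the 42 genes of the Rat5 level relative to the mean of the other rats was 6.32 in CSAA+PTS, 4.80 in CSAA+RSV and 5.13 in CSAA+CGA, against 2.02 in CSAA. The same medians over all 16734 genes tested were 1.03, 1.04, 0.997 and 1.01. In the same diet order, Rat5 was at least 2-fold above the mean of the other rats for 37, 37, 34 and 22 of the 42 collagens. The shares over all genes tested were 17.4%, 17.9%, 10.4% and 10.1%. The sets are unlike, since the 42 include 10 collagens that failed the filter on low counts. Those 10 had Rat5 means of 5.02 to 15.3 times the mean of the other 15 libraries. By that ratio the median was 3.62 for the 32 collagens tested and 1.01 for all genes tested. With 1 Rat5 library per diet, diet cannot be told apart from the animal numbers of these rats (23, 22, 24 and 17). Taken across diets, 27 of the 32 collagens tested had a Rat5 mean at least 2-fold above the mean of the other 15 libraries, beside 13.7% of all genes tested. For 14 of the 32, Rat5 was the highest library in all 4 diets, beside 8.98% of all genes tested. These are descriptions of libraries, and the Rat5 libraries differed from the rest in much more than collagens.

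A 2-fold Rat5 difference was more frequent among genes of low level. Of the tested collagens with a mean under 1 CPM in the other 15 libraries, 23 of 23 were at least 2-fold higher in Rat5, beside 40.9% of all tested genes at that level. Of those with 1 to 10 CPM, 4 of 9 were at least 2-fold higher, beside 4.2% of all tested genes. No collagen had a mean of 10 CPM or more in the other 15 libraries, a level at which 0.209% of all tested genes were at least 2-fold higher. The 4 genes of the middle level were Col3a1 (7.90-fold), Col17a1 (2.43-fold), Col1a1 (2.16-fold) and Col20a1 (2.07-fold). The values of Col3a1 and Col1a1 rested on CSAA+CGA Rat5: with that library left out of the Rat5 mean, a choice made after seeing the data, they were 2.68-fold and 1.19-fold. At the other end, Col4a3 was at 0.981-fold and Col11a1 at 1.20-fold. Among the 33 collagens with fewer reads the ratio ran from 2.60 to 15.3, with a median of 6.20.

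**Figure D3:**
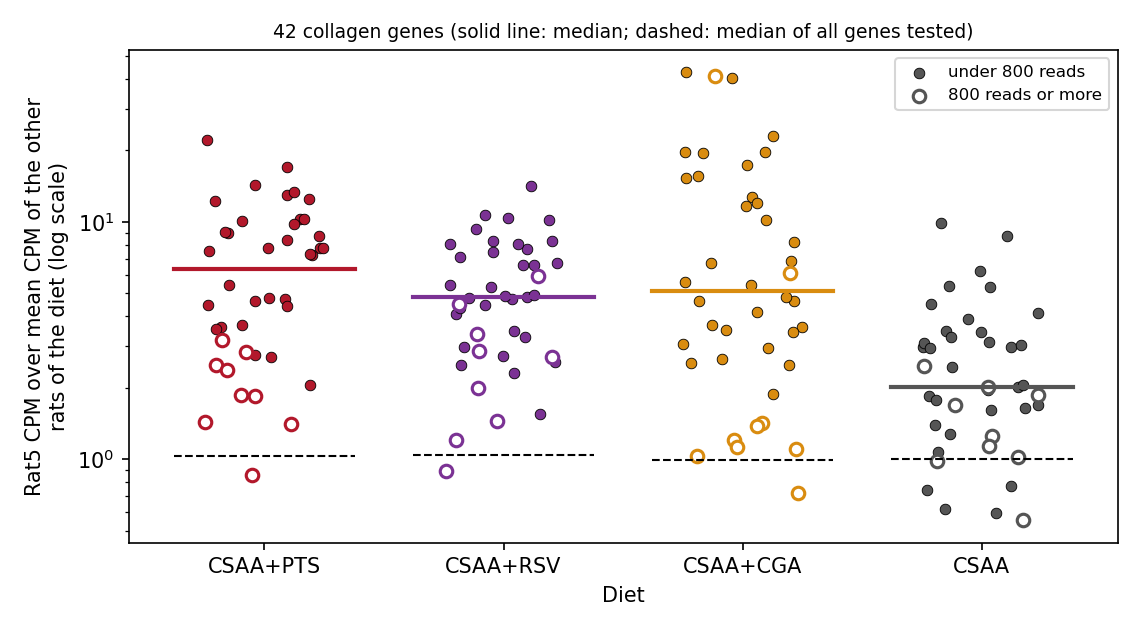
Level of each of the 42 collagens in the Rat5 library of a diet, relative to the mean of the other rats on that diet (log scale), with solid lines for the median of the collagens and dashed lines for the median of all tested genes. The 42 include 10 collagens that were not tested for low counts. The collagen medians are 6.32, 4.80, 5.13 and 2.02 in CSAA+PTS, CSAA+RSV, CSAA+CGA and CSAA, and the 9 genes with over 800 reads (open circles) mostly lie lower.

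By class, the beaded filament collagens of type VI, which form microfibrils around cells, showed the largest ratio. They averaged 5.37 CPM in the Rat5 libraries and 0.719 CPM in the others, a ratio of 7.46. Of this class, Col6a4, Col6a5 and Col6a6 overlap another protein-coding gene, so their counts are uncertain. The ratio was 4.205 for the fibrillar class, 3.66 for the FACIT class, 3.41 for the pair of other collagens, 2.92 for the multiplexins of types XV and XVIII, 2.70 for the transmembrane class and 2.07 for the network and anchoring class. It was lowest, at 1.83, for type IV. Without CSAA+CGA Rat5 the fibrillar ratio was 2.04, below that of every class but type IV, and the ratio of the type VI collagens was 5.54 and still the largest. Col6a2 was the type VI gene with most reads, and its 404 reads included 196 in CSAA+CGA Rat5, 44 in CSAA+PTS Rat5 and 44 in CSAA+RSV Rat5. In the other 16 libraries Col6a2 had 1 to 24 reads, and the largest of these counts was in CSAA Rat4, the library with the most Col1a1.

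The Rat5 libraries were not alike in which collagens were high. Of the 42 genes, 24 had their highest CPM in CSAA+PTS Rat5, 7 in CSAA+RSV Rat5, 6 in CSAA+CGA Rat5 and 1 in CSAA Rat5, and the 4 others (Col1a1, Col11a1, Col11a2 and Col4a3) peaked in other libraries. The share of all genes that peaked in each library was not counted, and CSAA+PTS Rat5 had the most genes detected (29543). CSAA+CGA Rat5 was led by Col3a1 and Col1a1, which made up 77.4% of its collagen reads, whereas they made up 27.3% in CSAA+PTS Rat5, 34.6% in CSAA+RSV Rat5 and 37.7% in CSAA Rat5. With these 2 genes set aside, the other 40 collagens summed to 54.8 CPM in CSAA+PTS Rat5, 46.4 CPM in CSAA+RSV Rat5, 45.0 CPM in CSAA+CGA Rat5 and 27.7 CPM in CSAA Rat5. In the other 15 libraries they summed to 11.6 to 24.9 CPM, and CSAA Rat4 was the highest of these.

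Markers of several other tissues were also higher in the Rat5 libraries. Relative to the mean of the other 15 libraries, the Rat5 mean of the summed level was 4.53 for the 6 liver markers, 3.14 for the 7 epithelial markers, 3.13 for the 6 skeletal muscle markers present in the table, 2.83 for the 10 fibroblast markers, 2.06 for the 6 eye markers and 1.85 for the 7 smooth muscle and pericyte markers. It was 1.09 for the 8 endothelial markers in the table, 0.790 for the 6 neural markers and 0.701 for the 11 blood cell markers. The summed liver level was 0.627 to 2.00 CPM in the Rat5 libraries and 0.0645 to 1.21 CPM in the others. Each of the 6 liver markers had a median of at most 0.113 CPM over the 19 libraries. Of all tested genes with a mean under 1 CPM in the other 15 libraries, 40.9% were at least 2-fold higher in Rat5. A rise of such low markers is thus not particular to their tissue. The epithelial list reached 79.2 CPM in CSAA+RSV Rat5 and 33.8 CPM in CSAA Rat5 but was 10.1 CPM in CSAA+PTS Rat5, where the collagens without Col1a1 and Col3a1 were highest. The part of these other cell types in the Rat5 collagen levels was not tested.

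**Figure D4:**
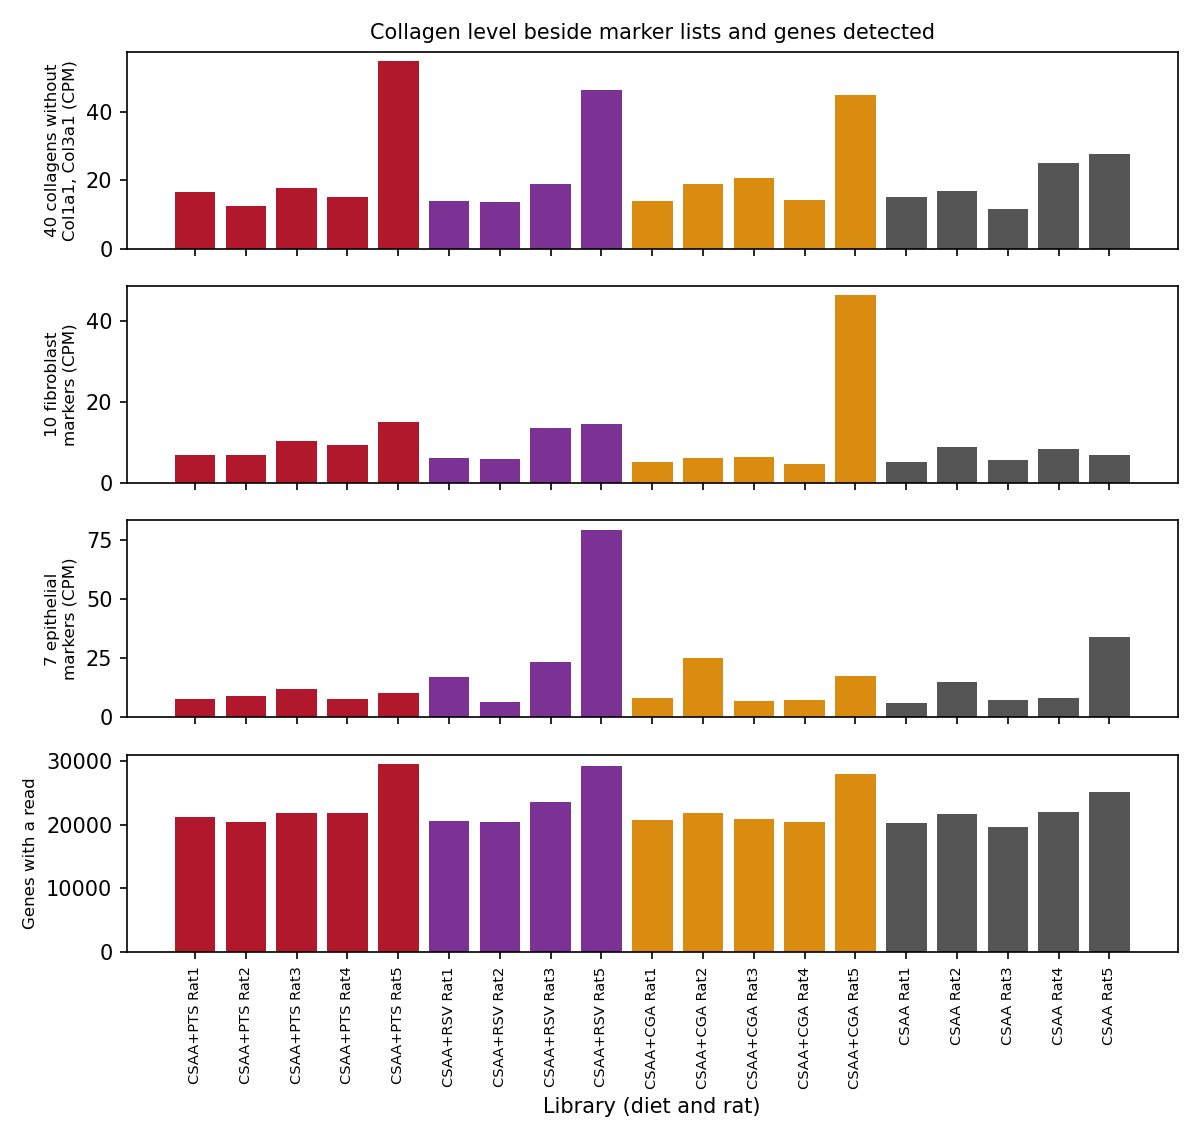
Summed CPM of the 40 collagens other than Col1a1 and Col3a1, of the 10 fibroblast markers and of the 7 epithelial markers, and the number of genes with a read, in each of the 19 libraries (bars coloured by diet). The Rat5 bars of CSAA+PTS, CSAA+RSV and CSAA+CGA lead the collagen and gene panels, CSAA+CGA Rat5 leads the fibroblast panel at 46.4 CPM, and CSAA+RSV Rat5 leads the epithelial panel at 79.2 CPM.

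The diets were then compared, to ask whether a polyphenol changed collagen transcripts in blood. Summed over the 42 genes, collagen averaged 37.3 ± 23.9 CPM in CSAA+PTS (SD, n = 5), 34.2 ± 25.9 CPM in CSAA+RSV (n = 4) and 59.2 ± 78.3 CPM in CSAA+CGA (n = 5), against 34.5 ± 24.2 CPM in CSAA (n = 5). Without the Rat5 libraries these were 27.8 ± 12.4 CPM (n = 4), 21.9 ± 9.98 CPM (n = 3) and 24.3 ± 9.003 CPM (n = 4), against 32.1 ± 27.2 CPM (n = 4) in CSAA. The CSAA value then rested on CSAA Rat4, at 72.3 CPM. With or without Rat5, the diet means lay within the spread between rats.

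No collagen was called in any comparison. Of the 42 genes, 32 passed the filter on low counts and were tested with edgeR's quasi-likelihood test over 16734 genes. The 10 not tested were Col6a5, Col2a1, Col4a5, Col9a3, Col24a1, Col19a1, Col9a1, Col4a6, Col28a1 and Col25a1, with 31 to 186 reads each over the 19 libraries. At an FDR of 0.05, 0 of the 32 were called in each of the 6 comparisons, where 0% of all genes were called too. DESeq2 called none of the 32 either, while it called 6 genes in all for CSAA+PTS against CSAA and 1 for CSAA+PTS against CSAA+RSV. None of the 32 had libraries that did not overlap between a polyphenol diet and CSAA, beside 1.39% of all genes for CSAA+PTS, 0.741% for CSAA+RSV and 0.239% for CSAA+CGA.

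At an unadjusted p under 0.05, edgeR marked 0 of the 32 collagens for CSAA+PTS against CSAA, where it marked 7.58% of all genes. For CSAA+RSV against CSAA it marked 1 of the 32, Col8a1, beside 2.13% of all genes. For CSAA+CGA against CSAA it marked 0, beside 0.639%. Between the polyphenol diets it marked 0 for CSAA+PTS against CSAA+RSV (3.06% of all genes), 0 for CSAA+PTS against CSAA+CGA (5.22%) and 0 for CSAA+RSV against CSAA+CGA (1.95%). With the rat number as a block, which the pairing check allowed for CSAA+PTS against CSAA, 5 collagens were marked, all higher (Col15a1, Col27a1, Col14a1, Col6a4 and Col6a6), beside 12.2% of all genes, and 0 were called at an FDR of 0.05. The lowest p in the block fit was that of Col6a6, with a log2 fold change of 1.72 (SE 0.60, edgeR FDR 0.294, unadjusted p = 0.0107). It had 2, 3, 6, 4 and 33 reads in the CSAA+PTS rats, against 0, 2, 0, 5 and 5 reads in the CSAA rats.

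The fold changes leaned upward in all 3 comparisons with CSAA. For CSAA+PTS against CSAA, 25 of the 32 had a log2 fold change above 0 and the median was 0.77, whereas the median of all tested genes was 0.02. For CSAA+RSV against CSAA, 23 were above 0 and the median was 0.48. For CSAA+CGA against CSAA, 25 were above 0 and the median was 0.35. The 3 comparisons share the CSAA rats, so these are not separate observations. Without the Rat5 libraries the medians were 0.02 with 18 above 0 for CSAA+PTS, -0.09 with 15 above 0 for CSAA+RSV and -0.02 with 15 above 0 for CSAA+CGA. The lean was thus present with the Rat5 libraries and not without them, and a single library was enough to turn each median: it was -0.13 without CSAA+PTS Rat5, -0.32 without CSAA+RSV Rat5 and -0.29 without CSAA+CGA Rat5, each in the comparison of that diet with CSAA.

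**Figure D5:**
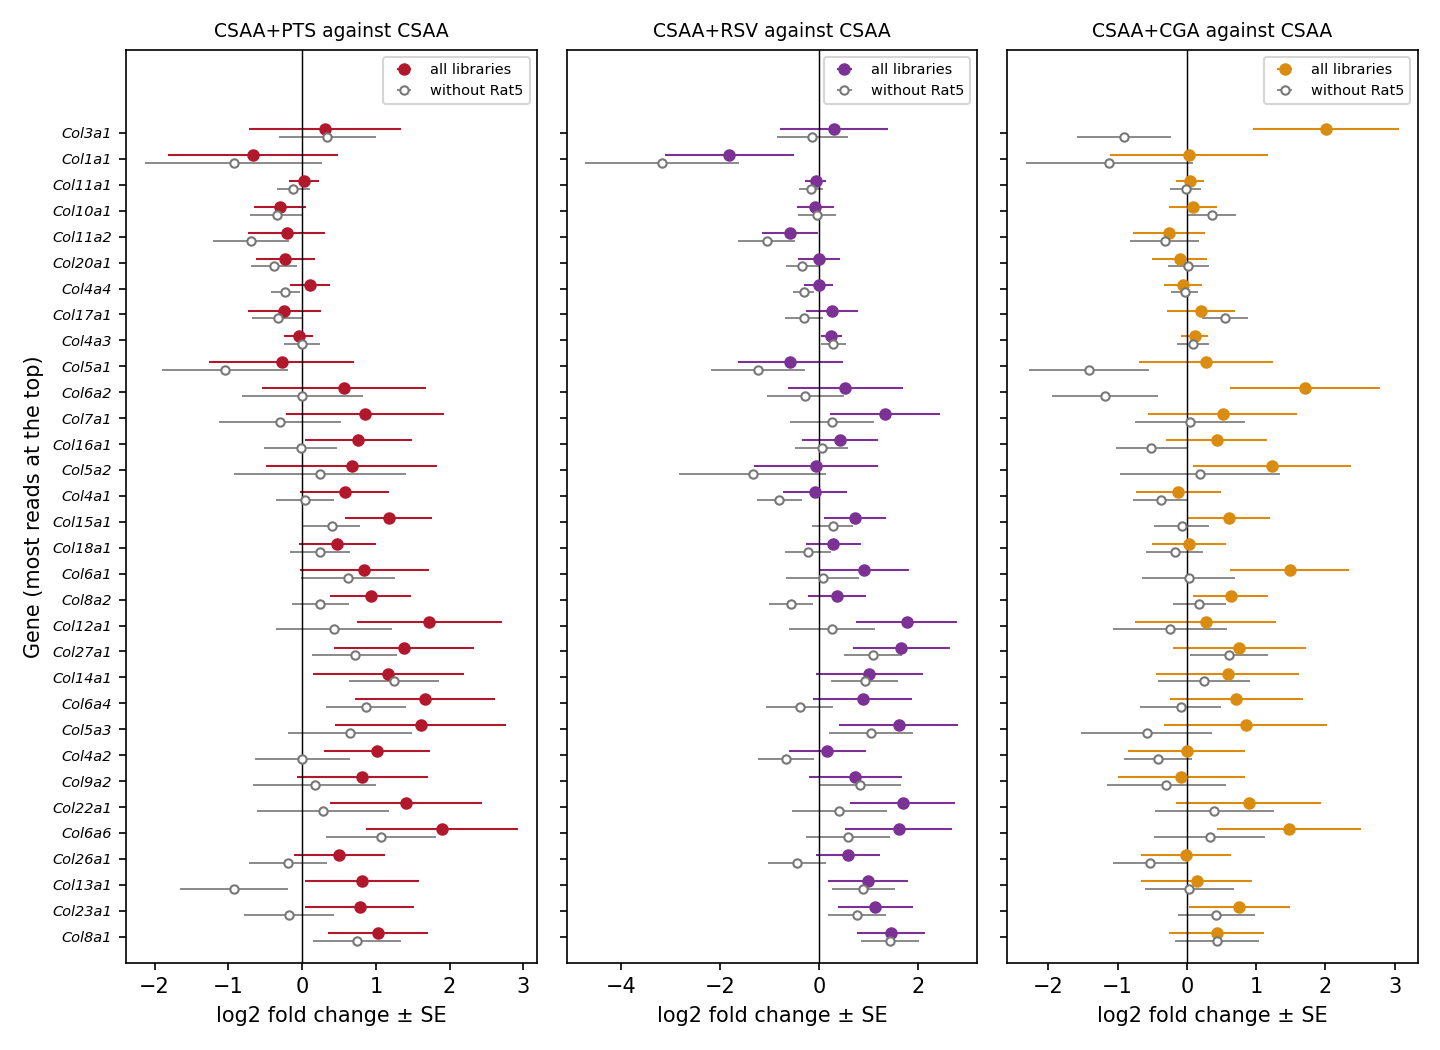
Log2 fold change with its SE of the 32 tested collagens for each polyphenol diet against CSAA, with all 19 libraries (filled) and without the Rat5 libraries (open), ordered by reads. The medians are 0.77, 0.48 and 0.35 with all libraries and 0.02, -0.09 and -0.02 without Rat5, and no gene was called at an FDR of 0.05.

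In CSAA+PTS against CSAA, with diet as the only term, the collagen with the lowest p was Col15a1. This is a collagen of the zone between basement membrane and matrix. It had 9, 5, 11, 16 and 56 reads in the CSAA+PTS rats, against 9, 9, 4, 8 and 9 reads in the CSAA rats. The ranges overlapped, and CSAA+PTS Rat5 stood far above the others. The log2 fold change of Col15a1 was 1.18 (SE 0.59, edgeR FDR 0.656, unadjusted p = 0.0614), and it was 0.37 when CSAA+PTS Rat5 was left out.

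In CSAA+RSV against CSAA it was Col8a1, a short-chain collagen of endothelium and vessel walls. It had 5, 4, 6 and 17 reads in the CSAA+RSV rats, against 0, 3, 1, 3 and 6 reads in the CSAA rats. The counts were few and overlapped. The log2 fold change of Col8a1 was 1.45 (SE 0.69, edgeR FDR 1.00, unadjusted p = 0.0491). Without the Rat5 libraries the log2 fold change of Col8a1 was 1.43 (SE 0.59, unadjusted p = 0.0266), and Col8a1 was again not called. It was 0.95 without CSAA+RSV Rat5 alone and 1.95 without CSAA Rat5 alone. Against CSAA+CGA, whose rats had 3, 4, 1, 3 and 10 Col8a1 reads, the log2 fold change of CSAA+RSV was 1.02 (SE 0.65, edgeR FDR 0.999, unadjusted p = 0.137).

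In CSAA+CGA against CSAA it was Col3a1, with a log2 fold change of 2.01 (SE 1.05, edgeR FDR 1.00, unadjusted p = 0.0723). The value turned to -1.16 when CSAA+CGA Rat5 was left out and to -0.90 without the 4 Rat5 libraries, so its direction rested on 1 library. The same held for CSAA+PTS against CSAA+CGA, where the log2 fold change of Col3a1 was -1.69 with all libraries (SE 1.04, edgeR FDR 0.828) and 1.48 without CSAA+CGA Rat5.

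Pterostilbene and its analog resveratrol were given at equal molar amounts and could be compared directly. The median log2 fold change of the 32 collagens for CSAA+PTS against CSAA+RSV was 0.06, with 18 above 0 and values from -0.50 to 1.15. The collagen with the lowest p was the steady Col4a3, which had 29, 35, 43, 45 and 39 reads in the CSAA+PTS rats, against 45, 34, 62 and 56 reads in the CSAA+RSV rats. Its log2 fold change was -0.30 (SE 0.21, edgeR FDR 1.00, unadjusted p = 0.165), with a 95% interval of -0.73 to 0.13. For Col3a1 the difference was 0.00, but its interval of -2.28 to 2.29 did not exclude changes of over 4-fold in either direction, and for Col1a1 the interval was -1.56 to 3.85. At this spread the data thus do not show that the 2 compounds act alike on Col3a1 or Col1a1. Chlorogenic acid, which is no stilbene, gave a median of 0.33 for CSAA+PTS against CSAA+CGA and of 0.13 for CSAA+RSV against CSAA+CGA. Without the Rat5 libraries the medians were 0.15 for CSAA+PTS against CSAA+RSV, 0.32 for CSAA+PTS against CSAA+CGA and 0.13 for CSAA+RSV against CSAA+CGA, and the log2 fold change of Col4a3 for CSAA+PTS against CSAA+RSV was -0.29.

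Without the Rat5 libraries the marked collagens were few as well. Among the comparisons with CSAA, edgeR marked 0 for CSAA+PTS (9.18% of all genes), 1 for CSAA+RSV, the Col8a1 given above (3.22%), and 0 for CSAA+CGA (1.51%). Between polyphenol diets it marked 1 for CSAA+PTS against CSAA+RSV (2.73% of all genes), Col13a1, a transmembrane collagen of cell junctions named after its values were seen, with 1, 1, 3 and 1 reads in the CSAA+PTS rats against 3, 3 and 11 reads in the CSAA+RSV rats. It marked 1 for CSAA+PTS against CSAA+CGA (14.4%) and 1 for CSAA+RSV against CSAA+CGA (7.17%), and both times this was Col17a1. The log2 fold change of Col17a1 was -0.88 (SE 0.34, edgeR FDR 0.299) for CSAA+PTS against CSAA+CGA. CSAA+CGA Rat2, the library with 2.80 CPM of Col17a1 and 13.3 CPM of Krt5, was among the 4 CSAA+CGA rats of that fit.

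Genes that make and process collagen were measured next to the collagens themselves. This list and the following 2 were drawn up with earlier results of these data known. Of the 29 genes that modify, fold, trim or crosslink collagen, 27 were in the table and 23 were tested. The genes with most reads were P4hb, protein disulfide isomerase and the beta subunit of prolyl 4-hydroxylase (37.7 to 58.4 CPM), and Ppib, a prolyl isomerase of the endoplasmic reticulum (20.7 to 43.7 CPM), which serve many secreted proteins. Sum levels of the list were 106 to 156 CPM, and the ratio of Rat5 to the other libraries was 0.940. Within the list, 8 of the 10 tested genes with a mean under 1 CPM in the other 15 libraries were at least 2-fold higher in Rat5, beside 40.9% of all tested genes at that level, among them the collagen chaperone gene Serpinh1 (3.18-fold) and the crosslinking enzyme gene Lox (3.93-fold), which were singled out after their values were seen.

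In CSAA+PTS against CSAA, 0 of the 23 were called and 1 was marked at an unadjusted p under 0.05, beside 7.58% of all genes tested. The list thus held no excess of marked genes. This was P3h1, a prolyl 3-hydroxylase of fibrillar collagens. It had 1.47, 1.34, 1.32, 0.923 and 1.14 CPM in the CSAA+PTS rats, against 1.06, 1.89, 1.77, 1.73 and 1.76 CPM in the CSAA rats. Apart from CSAA Rat1, the control rats were above all CSAA+PTS rats. The log2 fold change of P3h1 was -0.41 (SE 0.17, edgeR FDR 0.640, unadjusted p = 0.0237), and it ran from -0.53 to -0.32 as single libraries were left out. The median of the list was 0.08 for CSAA+PTS, 0.02 for CSAA+RSV and 0.03 for CSAA+CGA, each against CSAA.

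Enzymes that cleave collagen were dominated by the neutrophil collagenase Mmp8 (30.3 to 125 CPM) and the gelatinase Mmp9 (1.99 to 11.1 CPM). Both had their highest level in CSAA+PTS Rat2 and their lowest in CSAA+CGA Rat5, the library with the most Col3a1. All 8 genes of the list were in the table, 5 were tested and 0 were called. The lowest p in CSAA+PTS against CSAA was that of Ctsk, a collagen-degrading cysteine protease of osteoclasts, with 0.870 ± 0.217 CPM in CSAA+PTS and 0.707 ± 0.135 CPM in CSAA (SD, n = 5 each). Its log2 fold change was 0.30 (SE 0.30, edgeR FDR 0.784).

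Receptors for collagen included genes that blood cells express at high levels. Itgb1, the integrin subunit shared by the collagen-binding integrins, had 139 to 256 CPM, and Gp6, the platelet collagen receptor glycoprotein VI, had 97.4 to 210 CPM. All 9 genes of the list were in the table, 7 were tested and 0 were called in any comparison with CSAA. Ddr2, a receptor tyrosine kinase for fibrillar collagen that fibroblasts express, behaved as the low collagens did. It had 0.0716, 0.163, 0.214, 0.317 and 0.961 CPM in the CSAA+PTS rats, against 0.117, 0.105, 0.121, 0.255 and 0.408 CPM in the CSAA rats. Rat5 was the highest in both diets, and the log2 fold change of Ddr2 was 0.77 (SE 0.72, edgeR FDR 0.773) with all libraries and -0.08 without CSAA+PTS Rat5. Gp6 and Itgb1 moved the other way between libraries, with Rat5 means of 0.767 and 0.756 times the mean of the other libraries.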

How the data were processed

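Whole blood RNA libraries from a stranded kit, read as single 50 bp reads, were processed by the authors: trimming with Trimmomatic 0.32, quality control with FastQC 0.11, alignment to rn6 with TopHat2 2.1 and counting per gene with Rsubread. The deposited values are raw counts of reads per gene. The strand setting of the counting was not given in the sources used here. The table also holds a gene length, used for levels per kb.

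A gene was tested when at most 4 of the 19 libraries had under 2 of its reads. Counts were fitted with edgeR 4.0.16 (R 4.3.3, TMM factors, quasi-likelihood test, 1 term for diet, Benjamini-Hochberg adjustment over all genes tested), with DESeq2 1.42.0 as an alternative. CPM used TMM-adjusted totals. The procedure was tested on simulated data.

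Members and lists were chosen with earlier results of these data known. Named genes were the 8 collagens with most reads, the one with most reads in each class, the one with the lowest p in each comparison and, in 3 pathway lists, the 2 with most reads and the one with the lowest p for CSAA+PTS against CSAA. In CSAA+PTS against CSAA, rats with the same number deviated together from their diet means in all 5 pairs (correlations over genes of 0.11 to 0.47). A fit with the number as a block is therefore given there as an alternative. The main fit, with diet as its only term, did not use the pairing. The Rat5 pair joined animals 23 and 17. Sequences came from RefSeq on GRCr8, where all 42 collagens matched by symbol and 33 had a promoter sequence, and the counts are on rn6. Alternatives were another scaling, other filters, DESeq2, only the 2 diets compared, a block for the rat number, and leaving out libraries.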

Additional observations from a re-analysis of the deposited data

Results flagged for a closer look

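Within diets, single libraries that stood far from the others of their diet were looked for in the summed collagen level and in the 22 named genes. By Dixon's test, chance alone marks about 1 in 20 groups, and 22 of 92 groups were marked, 17 of them through a Rat5 library. That rate holds for independent groups of normally distributed values. These genes were measured in the same libraries, and some were named for a low p. The count is thus a description and no test of the Rat5 libraries.

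In CSAA+PTS the library standing apart was Rat5 for Col4a4 (2.97 CPM), Col17a1 (2.36 CPM), Col6a2 (1.28 CPM), Col15a1 (1.63 CPM), Col8a1 (0.466 CPM) and Ddr2 (0.961 CPM), each the highest of its diet. In CSAA+RSV it was Rat5 for Col4a4 (2.34 CPM), Col17a1 (3.88 CPM) and Col26a1 (0.494 CPM), again the highest.

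In CSAA+CGA, Rat5 stood apart for summed collagen (199 CPM), Col3a1 (128 CPM), Col6a2 (4.81 CPM), Col15a1 (1.03 CPM), Ctsk (1.28 CPM) and Ddr2 (0.761 CPM), all high, and for Col10a1 (1.94 CPM), which was low. Rat2 of that diet was low for Col4a4 (1.10 CPM). In CSAA, Rat4 was high for Col1a1 (34.1 CPM) and Mmp8 (76.9 CPM), Rat5 was high for Col20a1 (2.89 CPM), Rat3 was high for Gp6 (205 CPM) and Rat1 was low for P3h1 (1.06 CPM). What sets these libraries apart was not tested.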

How the results depend on the processing

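Counts of 0 called collagens held under every alternative run, in all 6 comparisons. Without the Rat5 libraries the median log2 fold change of the collagens moved by more than the spread between libraries for CSAA+PTS against CSAA (0.0212) and CSAA+RSV against CSAA (-0.0882), and the direction of Col3a1 turned for CSAA+CGA against CSAA (-0.90) and CSAA+PTS against CSAA+CGA (1.24). Leaving out 1 library at a time, the medians ran from -0.13 to 0.94 for CSAA+PTS against CSAA, -0.32 to 0.77 for CSAA+RSV against CSAA, -0.29 to 0.57 for CSAA+CGA against CSAA, -0.56 to 0.92 for CSAA+PTS against CSAA+RSV, -0.61 to 1.13 for CSAA+PTS against CSAA+CGA and -0.64 to 0.98 for CSAA+RSV against CSAA+CGA. The lowest and highest values of Col3a1 were -1.16 and 2.38 for CSAA+CGA against CSAA and -1.996 and 1.48 for CSAA+PTS against CSAA+CGA, and those of Ddr2 for CSAA+PTS against CSAA were -0.0785 and 1.18. The replicate block left the count of called collagens at 0 and gave a median of 0.45 for CSAA+PTS against CSAA, 0.20 for CSAA+RSV and 0.25 for CSAA+CGA. In the comparisons other than CSAA+PTS against CSAA not every pair of rats with the same number deviated together.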

Other observations

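CSAA+RSV Rat4, which entered no comparison, had 42 collagen reads among its 861072 counts, or 48.8 reads per 1000000 (95% Wilson interval 36.1 to 65.9). Col3a1 had 12 of them and Col1a1 7, and 18 of the 42 collagens had a read. The other CSAA+RSV libraries had 15.1 to 95.3 collagen reads per 1000000 and the CSAA libraries 10.98 to 78.5.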
